A study of Mus musculus with 34 samples.

Results

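The G2/M and mitosis genes are transcripts that dividing cells make late in the cell cycle. A list of 41 genes was taken, chosen with earlier results of these data known. Each gene was represented by the probe set that names that gene alone and has the highest mean signal over all arrays. Such a probe set was found for 40 of the 41, out of 18194 genes with a probe set. The signal of Ccnb1 was therefore not analysed here, but its promoter is counted among those of the listed genes. All 40 passed the filter on low values (a log2 signal of at least 4 in at least 4 arrays), as did 11998 genes in all, but 9 of them passed through their day 3 arrays: Plk1, Aurka, Nek2, Melk, Ttk, Aurkb, Ndc80, Tpx2 and Ncapg.

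The arrays measured RNA from thoracic spinal cord of C57BL/6J mice (backcrossed beyond generation N20, 8 to 12 weeks old). The trkB.T1 knockout (KO) animals lack the truncated receptor isoform of the gene Ntrk2, which has no kinase domain, and trkB.T1 wild-type (WT) animals were the controls. There were 34 arrays in 8 groups, each array titled as a biological replicate: sham KO (n = 4), sham WT (n = 4), day 1 KO (n = 4), day 1 WT (n = 5), day 3 KO (n = 5), day 3 WT (n = 4), day 7 KO (n = 4) and day 7 WT (n = 4), the days counted from a moderate contusion of the cord. The sources used here do not say whether the sham animals were operated on. The design addresses whether the response to contusion differs without trkB.T1. RNA came from whole tissue, so that fewer cells of a type and less RNA per cell cannot be told apart.

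Entry into mitosis is driven by the kinase CDK1 bound to cyclin A or cyclin B, and it is followed by chromosome condensation, attachment of kinetochores to the spindle, anaphase and cytokinesis. In resting cells most of these genes are held silent by the DREAM repressor complex, and in dividing cells they are activated together by B-MYB and FOXM1, largely through the promoter element called the cell cycle homology region. Neurons and mature oligodendrocytes of the adult cord do not divide, whereas after contusion microglia, macrophages, astrocytes, oligodendrocyte precursors, ependymal, endothelial and fibroblast-like cells are known to do so.

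Signals are the deposited log2 values of the arrays, whose lowest value was 2.17, and 33.7% of all values lay within 0.1 of it. A group with a mean under 4 is called near the floor, and the size of a difference that involves such a group depends on readings close to the floor: with every value below 4 set to 4, the median KO minus WT difference of the members at day 1 was −0.62, against −0.93 as deposited. Near the floor were 24 of the 40 genes in sham KO, 23 in sham WT, 28 in day 1 KO, 14 in day 1 WT, 0 in day 3 KO, 1 in day 3 WT, 10 in day 7 KO and 9 in day 7 WT. Of the 40 probe sets, 8 have a name ending in s_at or x_at, which marks probes that may match more than 1 transcript.

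Some arrays carry labels that go against each other. The arrays titled day 1 WT replicates 1 and 2 name day 7 and sham in their source and time fields, and they were grouped by title. Their correlation with the day 1 WT group was 0.80 and 0.69, whereas with groups of other times the highest values were 0.16 and 0.13. An Ntrk2 probe set ranged from 10.01 to 10.85 in WT arrays and from 3.12 to 4.94 in KO arrays other than the library labelled sham KO replicate 2, which read 9.46. The counts that these 3 arrays moved most are given with and without them. Over all arrays, 34 of 34 were nearest to a group of their own time. The log2 ratio of the 3′ to the 5′ actin probe set, a measure of RNA integrity, was 1.75 to 1.82 in day 1 KO and 1.61 to 1.78 in day 1 WT, and 1.22 to 1.81 in day 3 KO and 1.39 to 1.54 in day 3 WT.

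Promoters are shown because the members moved together over time. Of the listed genes, 35 had a promoter in the RefSeq table (build GRCm38.p6), 250 bases before to 50 bases after a transcription start, and 38 windows in all, since some genes had several starts. Tpx2, Smc4, Shcbp1, Aurkb, Ccna2 and Pbk had no entry there. Those shown are the 2 genes with the largest and the smallest genotype difference at day 1, Mki67 and Plk1, together with Cdk1, Ccnb2 and Cdc20. Capitals mark matches, on either strand, to the CCAAT box (CCAAT), the cell cycle homology region (TTTGAA or TTCGAA) or an E2F site (spelled below).
Mki67, chr7:135716330-135716629, minus strand: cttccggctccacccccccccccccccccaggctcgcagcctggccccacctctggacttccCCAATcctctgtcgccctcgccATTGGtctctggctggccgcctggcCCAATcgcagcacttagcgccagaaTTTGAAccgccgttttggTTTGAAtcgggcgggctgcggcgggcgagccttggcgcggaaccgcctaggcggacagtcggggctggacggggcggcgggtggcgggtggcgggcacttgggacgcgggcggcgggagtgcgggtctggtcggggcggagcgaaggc
Plk1, chr7:122159185-122159484, plus strand: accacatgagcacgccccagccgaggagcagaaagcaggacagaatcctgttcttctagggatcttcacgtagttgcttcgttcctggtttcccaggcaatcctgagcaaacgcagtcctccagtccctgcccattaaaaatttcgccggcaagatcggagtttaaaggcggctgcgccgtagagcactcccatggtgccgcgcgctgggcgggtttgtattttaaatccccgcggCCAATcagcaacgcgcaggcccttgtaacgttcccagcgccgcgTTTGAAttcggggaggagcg
Cdk1, chr10:69352863-69353162, minus strand: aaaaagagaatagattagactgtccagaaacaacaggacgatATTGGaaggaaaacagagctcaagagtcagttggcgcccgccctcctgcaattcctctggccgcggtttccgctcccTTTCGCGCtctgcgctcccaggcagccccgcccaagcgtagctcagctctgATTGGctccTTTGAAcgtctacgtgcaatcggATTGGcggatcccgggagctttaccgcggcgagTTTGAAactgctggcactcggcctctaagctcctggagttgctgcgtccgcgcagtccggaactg
Ccnb2, chr9:70421505-70421804, minus strand: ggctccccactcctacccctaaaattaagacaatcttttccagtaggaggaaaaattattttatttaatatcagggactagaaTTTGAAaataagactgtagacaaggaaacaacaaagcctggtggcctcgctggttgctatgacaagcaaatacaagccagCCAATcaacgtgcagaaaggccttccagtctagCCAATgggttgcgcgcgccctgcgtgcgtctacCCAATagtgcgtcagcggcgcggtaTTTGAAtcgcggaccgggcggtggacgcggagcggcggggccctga
Cdc20, chr4:118437294-118437593, minus strand: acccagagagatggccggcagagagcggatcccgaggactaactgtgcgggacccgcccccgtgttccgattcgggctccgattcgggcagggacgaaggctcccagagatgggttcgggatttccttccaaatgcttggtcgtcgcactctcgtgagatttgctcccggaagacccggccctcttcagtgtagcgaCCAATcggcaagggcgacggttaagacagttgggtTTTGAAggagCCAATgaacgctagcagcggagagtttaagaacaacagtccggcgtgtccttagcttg

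All 5 promoters hold at least 1 CCAAT box and at least 1 cell cycle homology region. In Cdc20 the homology region ends 13 bases before the start, with CCAAT boxes on both sides of it, and in Cdk1 the nearer of 2 such regions ends 10 bases before the start. Ccnb2 has 3 CCAAT boxes in front of the start, in the same orientation, and Mki67 also has 3, one of them on the opposite strand. Of the 38 windows of the listed genes 68.4% hold a CCAAT box, against 37.4% of all 32851 windows in the table. The cell cycle homology region is in 73.7% of the listed genes' windows and in 19.2% of all windows. Both elements are in 60.5% and in 7.52%. The E2F letters searched, TTTCGCGC or TTTGGCGC or TTTCCCGC, are in 5.26% of the listed genes' windows and in 1.84% of all. Of the 5 promoters shown, Cdk1 alone holds an E2F match. No motif overlapped another in these 5 windows.

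Contusion changed the level of nearly every member, and the change peaked at day 3 in both genotypes. In KO cords 39 of 40 members had their highest group mean at day 3, and in WT cords likewise 39 of 40. The exception in both was Anln. Of the 31 members that would pass the filter without the day 3 arrays, 30 were highest at day 3 in KO and 30 in WT. The median signal of the 40 genes in each array was 3.19 to 3.79 in sham KO and 3.35 to 3.97 in sham WT, 3.27 to 3.58 in day 1 KO and 4.89 to 5.50 in day 1 WT, 7.99 to 8.74 in day 3 KO and 7.38 to 8.35 in day 3 WT, and 6.15 to 6.52 in day 7 KO and 5.86 to 6.53 in day 7 WT. The genotypes overlapped in this median in sham, at day 3 and at day 7. At day 1 all 4 KO arrays lay below all 5 WT arrays and within the range of the sham arrays.

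**Figure D1:**
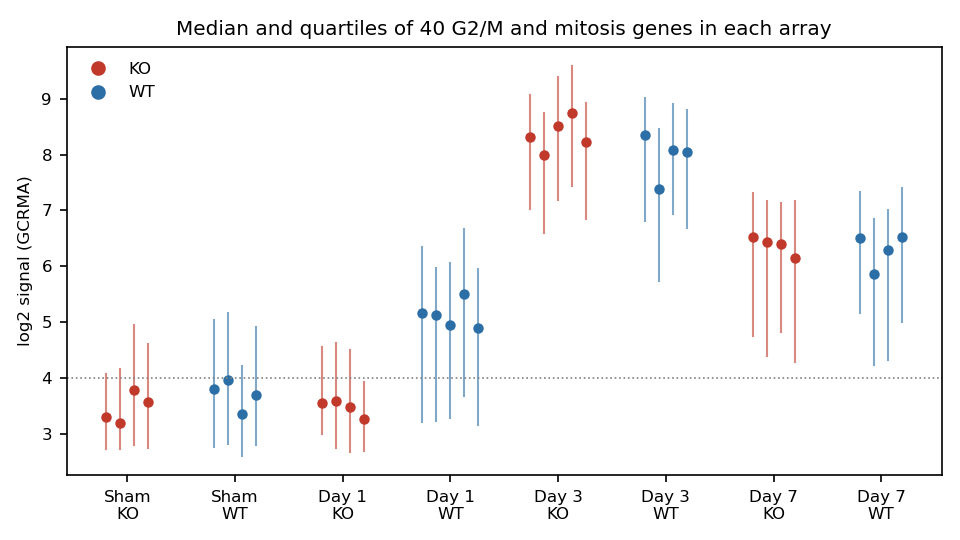
Median (point) and quartiles (line) of the log2 signal of 40 G2/M and mitosis genes in each of 34 arrays, KO in red and WT in blue; the dotted line is log2 4. The day 1 KO medians, 3.27 to 3.58, lie below the day 1 WT medians, 4.89 to 5.50, while the genotypes overlap in the other 3 pairs of groups.

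Genotype was compared at each time with limma, and p-values were adjusted by Benjamini-Hochberg over the 24573 tested probe sets, with a threshold of 0.05. At day 1, 21 of 40 members were lower in KO than in WT and 0 were higher, where 0.435% of all tested probe sets were lower. Since the members were chosen with earlier results of these data known, the gap between these shares is not independent evidence. The KO minus WT difference had a median of −0.93 over the members and of 0 over all tested probe sets, with a range over the members of −3.52 to 0.22, and 39 of 40 were below 0, as were 48.8% of all tested probe sets. An unadjusted p under 0.05 was reached by 30 members and by 8.82% of all tested probe sets. In 26 members every KO array lay below every WT array, against 2.71% of all tested probe sets. The count was 28 when the 2 WT arrays of conflicting labels were left out. Fewer arrays make such a separation easier, and its share over all probe sets was not computed, so nothing is read from the rise. Without the 2 WT arrays of conflicting labels 15 members were called, all of them among the 21. With those 2 arrays placed by their source and time fields, in day 7 WT and sham WT, 12 of the 21 were called. Members that kept the call under all 46 alternatives were Mki67, Top2a, Cdk1, Ccna2, Pbk, Mad2l1, Birc5, Cdca8, Cep55, Shcbp1 and Cdca5.

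In sham cords limma called 0 of 40 members in either direction (0.0163% of all probe sets were lower in KO). The median difference was −0.09, and 3 members had an unadjusted p under 0.05 (4.50% of all probe sets). At day 3 again limma called 0 members in either direction (0.0203% of all probe sets were higher in KO and 0.0163% lower). Here 39 of 40 differences were above 0, as were 48.2% of all probe sets, with a median of 0.40. An unadjusted p under 0.05 was reached by 9 members and by 10.6% of all probe sets. Of the 31 members that would pass the filter without the day 3 arrays, 5 reached it, with a median difference of 0.39. With arrays weighted by quality the median of the 40 members was 0.04. Day 3 WT replicate 2 had the lowest median signal of its group, 7.38, against 8.05 to 8.35 in the others. The part of that array in these differences was not tested. The lowest adjusted p at day 3 belonged to Ndc80, 0.260, for a difference of 0.73 ± 0.20. Without day 3 KO replicate 2, its lowest array of that group, Ndc80 was called higher in KO (0.96, adjusted p = 0.00317). Plk1 was called higher in KO without day 3 WT replicate 1, its highest array of that group (1.06, adjusted p = 0.0422). Leaving out such an array widens the gap, and both genes passed the filter through their day 3 arrays. Nothing is therefore read from these calls. At day 7 limma called 0 members in either direction (0.0244% of all probe sets were lower in KO), with a median of −0.02 and 2 members at an unadjusted p under 0.05 (4.66% of all probe sets). These misses do not show that the genotypes are alike, since at day 3 the differences ranged from −0.07 for Anln to 0.79 for Plk1.

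**Figure D2:**
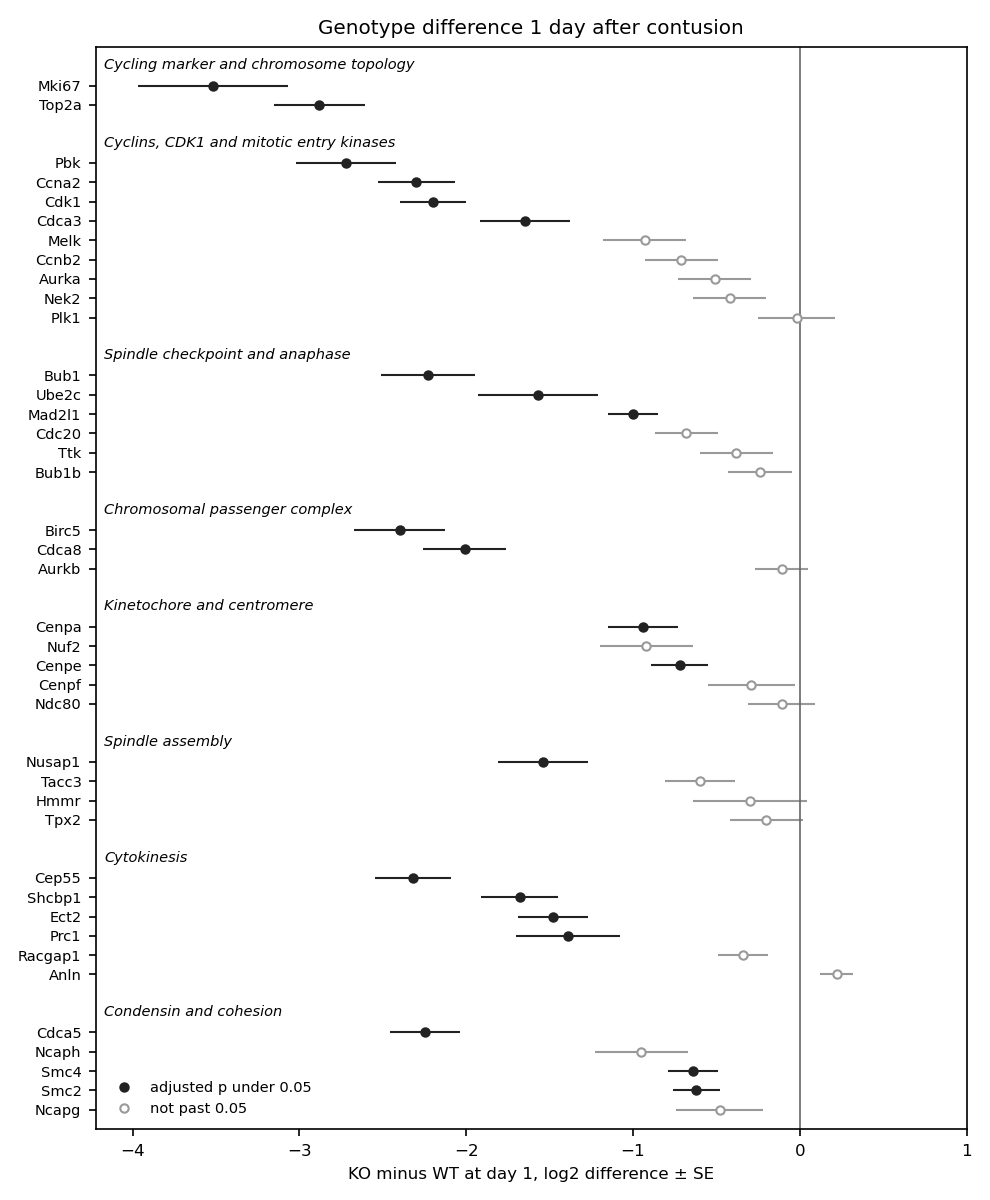
KO minus WT difference at day 1 (log2, point) with its standard error (line) for 40 genes grouped by role; filled points passed an adjusted p of 0.05. The differences run from −3.52 for Mki67 to 0.22 for Anln, and 21 are filled, all to the left of 0.

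Of the 40 members, 14 were near the floor in day 1 KO but not in day 1 WT, and another 14 were near the floor in both day 1 groups. This split uses the same group means as the calls, so nothing is read from it. Of the 19 members not called, 13 were near the floor in both genotypes at day 1, and the 1 called member of that kind was Cenpe. The other 6 not called had a mean of at least 4 in at least one genotype: Cdc20, Nuf2, Tacc3, Racgap1, Anln and Ncaph. Of 26 further tested probe sets of 20 members, 6 were lower in KO at day 1, where 0.435% of all tested probe sets were. Of these 26, 0 were higher and 20 were not called.

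Both markers of cycling cells were lower in KO at day 1. Mki67 encodes Ki-67, the protein used to stain cycling cells, which coats mitotic chromosomes. At day 1 it read 4.12, 3.66, 4.35 and 2.87 in KO, against 6.96, 6.74, 6.80, 7.69 and 8.19 in WT. All 4 KO values lay below all 5 WT values, and the difference was −3.52 ± 0.45 (adjusted p = 1.64e-05). In sham cords it read 3.71, 2.72, 5.74 and 4.25 in KO and 5.17, 6.68, 4.20 and 5.73 in WT, where the groups overlapped and the difference of −1.34 ± 0.47 did not pass (adjusted p = 0.838). At day 3 it read 10.43, 10.04, 10.92, 10.91 and 10.00 in KO and 10.27, 9.56, 10.16 and 10.08 in WT, and at day 7 8.68, 8.41, 8.37 and 8.25 in KO and 8.72, 8.04, 8.87 and 9.04 in WT. At both of these times the genotypes overlapped, and every array was above every sham and day 1 KO array. Among the members Mki67 varied most over the sham KO arrays (SD 1.26).

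Top2a encodes topoisomerase II alpha, which untangles sister chromatids. It read 4.25, 4.62, 4.47 and 3.69 in day 1 KO, against 7.36, 7.00, 6.67, 7.77 and 6.92 in day 1 WT. All KO arrays lay below all WT arrays, and the difference was −2.88 ± 0.27 (adjusted p = 1.53e-07). In sham cords Top2a read 3.69, 3.69, 4.65 and 4.32 in KO and 4.42, 5.05, 3.69 and 4.24 in WT. Its day 1 KO values thus overlapped the sham values of both genotypes. At day 3 it read 9.91, 9.66, 10.21, 10.37 and 9.79 in KO and 10.02, 8.71, 9.89 and 9.71 in WT. At day 7 the values were 8.04, 7.91, 7.82 and 7.76 in KO and 8.22, 7.66, 7.97 and 8.11 in WT, again overlapping. A second tested Top2a probe set, with a mean of 3.86 over all arrays, differed by −0.34 at day 1 (adjusted p = 0.783).

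Of the 9 measured cyclins, mitotic kinases and entry factors, 4 were lower in KO at day 1: Pbk, Ccna2, Cdk1 and Cdca3. The other 5, Melk, Ccnb2, Aurka, Nek2 and Plk1, were near the floor in both genotypes then. Cdk1 encodes the kinase at the centre of mitotic entry. Its signal was 4.50, 3.99, 4.03 and 3.91 in day 1 KO, against 6.55, 6.07, 6.13, 6.77 and 6.00 in day 1 WT. The groups did not overlap, and the difference was −2.20 ± 0.20 (adjusted p = 1.53e-07). In sham cords it was 3.09, 3.19, 3.71 and 3.66 in KO and 3.74, 4.07, 3.54 and 3.65 in WT. All 4 day 1 KO arrays exceeded all 4 sham KO arrays, and Cdk1 was one of 3 members that rose at day 1 in KO, by 0.70 ± 0.21 (adjusted p = 0.00897), against 2.56 ± 0.20 in WT (adjusted p = 2.30e-11). At day 3 Cdk1 read 9.02, 8.75, 9.21, 9.68 and 8.79 in KO and 9.14, 8.30, 8.91 and 8.88 in WT, and at day 7 7.31, 7.24, 7.05 and 7.17 in KO and 7.42, 6.85, 6.75 and 7.41 in WT. The genotypes overlapped at both times.

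Pbk, a mitotic kinase also called TOPK, read 4.10, 4.00, 3.85 and 3.35 in day 1 KO, against 6.63, 6.61, 6.36, 7.48 and 5.61 in day 1 WT. The groups lay apart, with a difference of −2.72 ± 0.30 (adjusted p = 1.46e-06). Sham values were 4.00, 3.83, 4.85 and 4.47 in KO and 4.11, 4.11, 4.25 and 4.70 in WT. At day 3 Pbk read 9.96, 9.83, 10.30, 10.81 and 10.26 in KO and 10.26, 8.63, 10.13 and 10.13 in WT, where WT replicate 2 stood low. At day 7 it read 8.53, 8.49, 8.31 and 7.97 in KO and 8.40, 8.14, 8.14 and 8.17 in WT, and the genotypes overlapped. Ccna2, which encodes cyclin A, averaged 3.73 ± 0.58 in day 1 KO and 6.03 ± 0.37 in day 1 WT (SD), a difference of −2.30 ± 0.23 (adjusted p = 2.90e-07). Its second probe set differed by −1.76 (adjusted p = 4.53e-05). Cdca3, a trigger of mitotic entry through degradation of WEE1, averaged 3.44 ± 0.37 in KO and 5.09 ± 0.30 in WT, a difference of −1.65 ± 0.27 (adjusted p = 0.000912).

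Plk1, the polo-like kinase of spindle assembly and mitotic exit, had the smallest difference at day 1. It read 2.51, 2.51, 2.49 and 2.17 in day 1 KO and 2.51, 2.46, 2.17, 2.51 and 2.51 in day 1 WT, and in sham cords 2.46, 2.46, 2.18 and 2.26 in KO and 2.29, 2.46, 2.46 and 2.51 in WT. All of these values were at or close to the floor, and the day 1 difference was −0.02 ± 0.23 (adjusted p = 0.994). At day 3 Plk1 read 5.60, 5.58, 5.88, 6.23 and 5.01 in KO and 5.68, 4.11, 4.70 and 5.00 in WT, clear of the floor in every array, and the difference of 0.79 ± 0.23 did not pass (adjusted p = 0.311). At day 7 it was back at 2.51, 2.71, 2.57 and 2.51 in KO and 3.63, 2.58, 2.61 and 2.51 in WT, and it was not called against sham in KO or in WT. Ccnb2, which encodes a B-type cyclin, averaged 3.07 ± 0.36 in day 1 KO and 3.78 ± 0.53 in day 1 WT. It then averaged 8.49 ± 0.38 in day 3 KO and 8.29 ± 0.26 in day 3 WT. The WT day 3 minus day 1 difference of Ccnb2, 4.50 ± 0.22, was the largest in WT among the members. Aurka, a centrosomal kinase, differed by −0.51 ± 0.22 at day 1, Nek2, which separates centrosomes, by −0.42 ± 0.22, and Melk, a kinase of proliferating cells, by −0.93 ± 0.25 (adjusted p = 0.468, 0.601 and 0.107).

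Among the 6 spindle checkpoint and anaphase genes, 3 were lower in KO at day 1: Bub1, Ube2c and Mad2l1. Bub1 encodes a checkpoint kinase at the kinetochore. It read 2.43, 2.19, 2.64 and 2.17 in day 1 KO, against 4.92, 4.65, 4.56, 5.35 and 3.44 in day 1 WT. The KO values were at the floor, as were the sham values of 2.19, 2.17, 2.17 and 2.63 in KO and 2.63, 2.17, 2.17 and 2.64 in WT. The day 1 difference was −2.23 ± 0.28 (adjusted p = 1.34e-05); with every value below 4 set to 4 it shrank to −0.70 and no longer passed (adjusted p = 0.245). At day 3 Bub1 read 7.87, 7.25, 8.16, 8.36 and 7.59 in KO and 7.73, 7.11, 7.65 and 7.46 in WT, and at day 7 5.83, 5.28, 5.89 and 5.32 in KO and 6.04, 4.62, 5.51 and 5.52 in WT. The genotypes overlapped at both times.

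Bub1b, which encodes the checkpoint protein BUBR1, differed least in this group. It read 3.54, 3.75, 3.54 and 3.58 in day 1 KO and 3.54, 3.75, 3.64, 3.98 and 4.30 in day 1 WT, overlapping, with a difference of −0.24 ± 0.19 (adjusted p = 0.774). In sham cords it read 3.54, 3.54, 3.75 and 3.54 in KO and 4.13, 3.54, 3.74 and 4.22 in WT. It was above these levels in every array at day 3, at 6.67, 6.31, 6.65, 6.79 and 6.34 in KO and 6.46, 5.77, 6.17 and 6.18 in WT. At day 7 it read 4.97, 4.24, 5.17 and 4.28 in KO and 4.90, 4.38, 4.42 and 5.05 in WT. Mad2l1, which encodes the checkpoint protein MAD2, was well above the floor throughout, averaging 6.54 ± 0.13 in day 1 KO and 7.54 ± 0.16 in day 1 WT. The difference passed (adjusted p = 0.000168). Ube2c, the ubiquitin-conjugating enzyme of the anaphase-promoting complex, averaged 3.02 ± 0.28 in KO and 4.59 ± 0.59 in WT (−1.57 ± 0.36, adjusted p = 0.0373). This call did not hold without any 1 of the day 1 KO arrays, nor without WT replicate 1, 4 or 5. It was also lost with every value below 4 set to 4, and with no filter on low values. Cdc20, which activates the anaphase-promoting complex, differed by −0.68 ± 0.19 (adjusted p = 0.134), and Ttk, the checkpoint kinase MPS1, by −0.38 ± 0.22 (adjusted p = 0.666).

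In the chromosomal passenger complex, which corrects faulty kinetochore attachments and marks the site of cleavage, Birc5 and Cdca8 were lower in KO at day 1 and Aurkb was not called. Birc5, which encodes survivin, read 3.84, 3.25, 4.70 and 3.38 in day 1 KO, against 6.28, 5.82, 6.04, 6.48 and 6.37 in day 1 WT. Every KO array was below every WT array, and the difference was −2.40 ± 0.27 (adjusted p = 2.64e-06). In sham cords it read 3.38, 4.47, 4.23 and 4.55 in KO and 5.00, 5.12, 4.05 and 4.96 in WT. Birc5 was the member that varied most among day 1 KO arrays (SD 0.65). At day 3 it read 9.26, 8.75, 9.64, 9.86 and 8.93 in KO and 9.19, 8.60, 8.95 and 8.81 in WT, and at day 7 7.31, 7.24, 7.32 and 7.13 in KO and 7.34, 6.49, 6.97 and 7.32 in WT. Cdca8, which encodes borealin, differed by −2.01 ± 0.25 (adjusted p = 1.11e-05); of its 2 further probe sets one differed by −1.98 (adjusted p = 5.66e-06) and the other by −0.08 (adjusted p = 0.963).

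Aurkb, the catalytic kinase of the complex, read 2.93, 2.75, 2.17 and 2.75 in day 1 KO and 2.75, 2.75, 2.75, 2.80 and 2.75 in day 1 WT. Sham values were 2.75, 2.49, 2.52 and 2.75 in KO and 2.75, 2.75, 2.75 and 2.75 in WT. These are floor readings in nearly every array, and the day 1 difference was −0.11 ± 0.16 (adjusted p = 0.903). At day 3 Aurkb read 5.07, 4.72, 5.54, 5.24 and 5.35 in KO and 4.97, 4.61, 4.18 and 4.88 in WT, and at day 7 2.98, 2.79, 2.85 and 2.91 in KO and 3.39, 2.75, 2.75 and 3.38 in WT. It rose at day 3 in both genotypes and was not called at day 7 in either, against sham.

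Of the 5 kinetochore and centromere genes 2 were lower in KO at day 1, Cenpa and Cenpe. Cenpa encodes the histone H3 variant that marks centromeres. It read 3.42, 3.47, 3.42 and 3.41 in day 1 KO, against 4.46, 4.30, 3.52, 4.65 and 4.92 in day 1 WT. The KO arrays lay together, below all WT arrays, and the difference was −0.94 ± 0.21 (adjusted p = 0.0328). In sham cords Cenpa read 3.53, 3.41, 4.35 and 3.56 in KO and 4.41, 4.52, 4.14 and 3.91 in WT, and neither genotype was called at day 1 against sham. At day 3 it read 8.84, 8.66, 9.01, 9.29 and 8.80 in KO and 8.65, 8.49, 8.77 and 8.49 in WT, and at day 7 7.16, 7.15, 7.06 and 7.17 in KO and 7.31, 6.57, 7.14 and 7.68 in WT. The day 1 calls of Cenpa and Cenpe did not hold without any 1 of the 4 KO arrays, nor without WT replicate 1, 2 or 4 of that day, and that of Cenpa also not without WT replicate 5. Both calls were also lost with every value below 4 set to 4, and with no filter on low values.

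Ndc80, which binds microtubules at the kinetochore, read 2.74, 2.64, 2.73 and 2.86 in day 1 KO and 2.86, 2.86, 2.86, 2.86 and 2.81 in day 1 WT. Sham values were 2.81, 2.81, 2.27 and 2.81 in KO and 2.66, 2.81, 2.17 and 2.81 in WT, all near the floor. The day 1 difference was −0.11 ± 0.20 (adjusted p = 0.931). At day 3 Ndc80 read 4.48, 3.61, 5.07, 5.05 and 4.59 in KO and 4.24, 3.54, 3.71 and 3.84 in WT, and at day 7 2.86, 2.86, 2.90 and 2.98 in KO and 3.08, 2.86, 2.86 and 3.34 in WT. The day 3 WT mean was the 1 day 3 group mean still near the floor. Cenpe, a kinetochore motor, averaged 2.89 ± 0.01 in day 1 KO and 3.61 ± 0.31 in day 1 WT (−0.72 ± 0.17, adjusted p = 0.0363), both under 4. Nuf2, the partner of NDC80, differed by −0.92 ± 0.28 (adjusted p = 0.163), and Cenpf, a large kinetochore protein, by −0.29 ± 0.26 (adjusted p = 0.821).

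Of the 4 spindle assembly genes Nusap1 was lower in KO at day 1. Nusap1, which bundles spindle microtubules, read 3.08, 3.12, 2.55 and 2.38 in day 1 KO, against 4.36, 3.74, 3.91, 5.17 and 4.43 in day 1 WT. The groups did not overlap, and the difference was −1.54 ± 0.27 (adjusted p = 0.00259); with every value below 4 set to 4 it shrank to −0.39 and did not pass (adjusted p = 0.615). The call of Nusap1 also did not hold with only the arrays compared (adjusted p = 0.0736), nor with the conflicting arrays placed by their source and time fields (adjusted p = 0.118). Sham values were 3.23, 2.23, 3.43 and 2.75 in KO and 2.81, 3.48, 3.09 and 3.21 in WT. At day 3 Nusap1 read 8.26, 7.95, 8.63, 8.53 and 8.17 in KO and 8.03, 7.55, 8.06 and 7.97 in WT, and at day 7 6.31, 6.37, 6.25 and 5.83 in KO and 6.65, 5.47, 6.62 and 6.79 in WT. Tpx2, which activates Aurora A on the spindle, read 2.17, 2.73, 2.30 and 2.44 in day 1 KO and 2.44, 2.44, 2.99, 2.75 and 2.44 in day 1 WT. Those values were near the floor, as in sham cords, which read 2.30, 2.32, 2.81 and 2.31 in KO and 2.73, 2.46, 2.43 and 2.44 in WT. The day 1 difference of Tpx2 was −0.20 ± 0.22 (adjusted p = 0.860). At day 3 it read 6.46, 5.58, 6.32, 6.83 and 6.53 in KO and 6.38, 5.14, 6.16 and 6.28 in WT, and at day 7 3.78, 3.30, 3.82 and 3.10 in KO and 3.30, 3.56, 3.69 and 3.93 in WT. Tacc3, which stabilises kinetochore fibres, differed by −0.60 ± 0.21 at day 1 (adjusted p = 0.293), and Hmmr, the spindle protein and hyaluronan receptor RHAMM, by −0.30 ± 0.34 (adjusted p = 0.864).

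Of the 6 cytokinesis genes 4 were lower in KO at day 1: Cep55, Shcbp1, Ect2 and Prc1. Cep55, which recruits the abscission machinery to the midbody, read 3.59, 3.74, 3.58 and 3.19 in day 1 KO, against 6.01, 5.91, 5.76, 6.48 and 5.09 in day 1 WT. The groups lay apart, with a difference of −2.32 ± 0.23 (adjusted p = 1.92e-07). In sham cords it read 3.16, 3.03, 3.16 and 3.04 in KO and 3.74, 3.03, 2.85 and 2.81 in WT. At day 3 Cep55 read 8.87, 8.74, 9.18, 9.43 and 8.63 in KO and 8.79, 7.97, 8.77 and 8.70 in WT, and at day 7 7.24, 6.97, 6.91 and 7.08 in KO and 7.09, 6.24, 6.64 and 7.00 in WT. Shcbp1, a midbody protein, differed by −1.68 ± 0.23 (adjusted p = 5.64e-05). Ect2, the activator of RhoA at the cleavage site, differed by −1.48 ± 0.21 (adjusted p = 0.000107). Prc1, which bundles the central spindle, differed by −1.39 ± 0.31 (adjusted p = 0.0307), and by −1.32 in its second probe set (adjusted p = 0.00948). The call of Prc1 did not hold without day 1 KO replicate 2, 3 or 4, nor without day 1 WT replicate 2 or 4. It was also lost with every value below 4 set to 4, and with no filter on low values. Racgap1, which partners a kinesin at the central spindle, was not called between genotypes (−0.34 ± 0.15, adjusted p = 0.504). It fell at day 1 against sham in KO (difference −1.03 ± 0.16, adjusted p = 8.18e-06) and in WT (difference −0.43 ± 0.15, adjusted p = 0.0193).

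Anln encodes anillin, which scaffolds the contractile ring; in the nervous system it is also a protein of myelin, where it forms septin filaments. It read 12.53, 12.34, 12.46 and 12.33 in day 1 KO and 12.15, 12.14, 11.93, 12.38 and 12.40 in day 1 WT, and in sham cords 12.03, 11.81, 11.95 and 11.93 in KO and 12.16, 12.05, 12.13 and 12.04 in WT. All its values lay far above the floor, and the day 1 groups overlapped, with a difference of 0.22 ± 0.10 (adjusted p = 0.499). At day 3 Anln read 11.69, 11.83, 11.66, 11.76 and 11.88 in KO and 11.94, 11.57, 11.90 and 11.92 in WT, and at day 7 11.60, 11.70, 11.88 and 11.57 in KO and 11.49, 11.74, 11.29 and 11.34 in WT. Against sham it rose in day 1 KO (0.49 ± 0.10, adjusted p = 0.000331), fell in day 3 WT (−0.26 ± 0.10, adjusted p = 0.0266) and fell at day 7 in KO (−0.24 ± 0.10, adjusted p = 0.0494) and in WT (−0.63 ± 0.10, adjusted p = 9.39e-06). Anln was thus the 1 member that did not rise at day 3.

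Of the condensin and cohesion genes 3 of 5 were lower in KO at day 1: Cdca5, Smc4 and Smc2. Cdca5 encodes sororin, which protects cohesion between sister chromatids. It read 3.04, 3.17, 3.18 and 2.50 in day 1 KO, against 5.63, 5.30, 4.98, 5.45 and 4.78 in day 1 WT. The groups lay apart, and the difference was −2.25 ± 0.21 (adjusted p = 1.53e-07). Sham values were 3.04, 3.08, 2.52 and 2.54 in KO and 2.55, 3.04, 2.59 and 2.49 in WT. At day 3 Cdca5 read 7.66, 7.46, 8.22, 8.15 and 7.41 in KO and 7.77, 6.87, 7.53 and 7.39 in WT, and at day 7 5.59, 5.55, 5.56 and 5.26 in KO and 5.85, 4.95, 5.54 and 5.80 in WT. The core condensin subunits Smc4 and Smc2, well above the floor in every group, differed at day 1 by −0.64 ± 0.15 (adjusted p = 0.0363) and −0.62 ± 0.14 (adjusted p = 0.0405). Neither call held without KO replicate 2, 3 or 4 of day 1, nor without WT replicate 1, 2 or 4 of that day; Smc4 lost its call also without KO replicate 1 or WT replicate 3, and Smc2 without WT replicate 5, sham KO replicate 4, day 7 KO replicate 2 or 3, or day 7 WT replicate 3. Ncaph, the condensin I kleisin subunit, differed by −0.95 ± 0.28 (adjusted p = 0.147).

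Ncapg, the condensin I subunit with the smallest difference in its group, read 3.20, 2.82, 2.19 and 2.95 in day 1 KO and 3.23, 3.20, 3.30, 3.37 and 3.24 in day 1 WT. Sham values were 2.31, 3.20, 2.79 and 2.79 in KO and 2.79, 2.79, 2.88 and 2.85 in WT. The highest day 1 KO array and the lowest day 1 WT array read the same, all values were under 4, and the difference of −0.48 ± 0.26 did not pass (adjusted p = 0.640). At day 3 Ncapg read 5.70, 5.29, 6.80, 6.36 and 5.43 in KO and 5.91, 4.86, 5.09 and 5.77 in WT, and at day 7 3.92, 3.25, 3.24 and 3.31 in KO and 4.11, 3.20, 3.82 and 3.25 in WT.

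**Figure D3:**
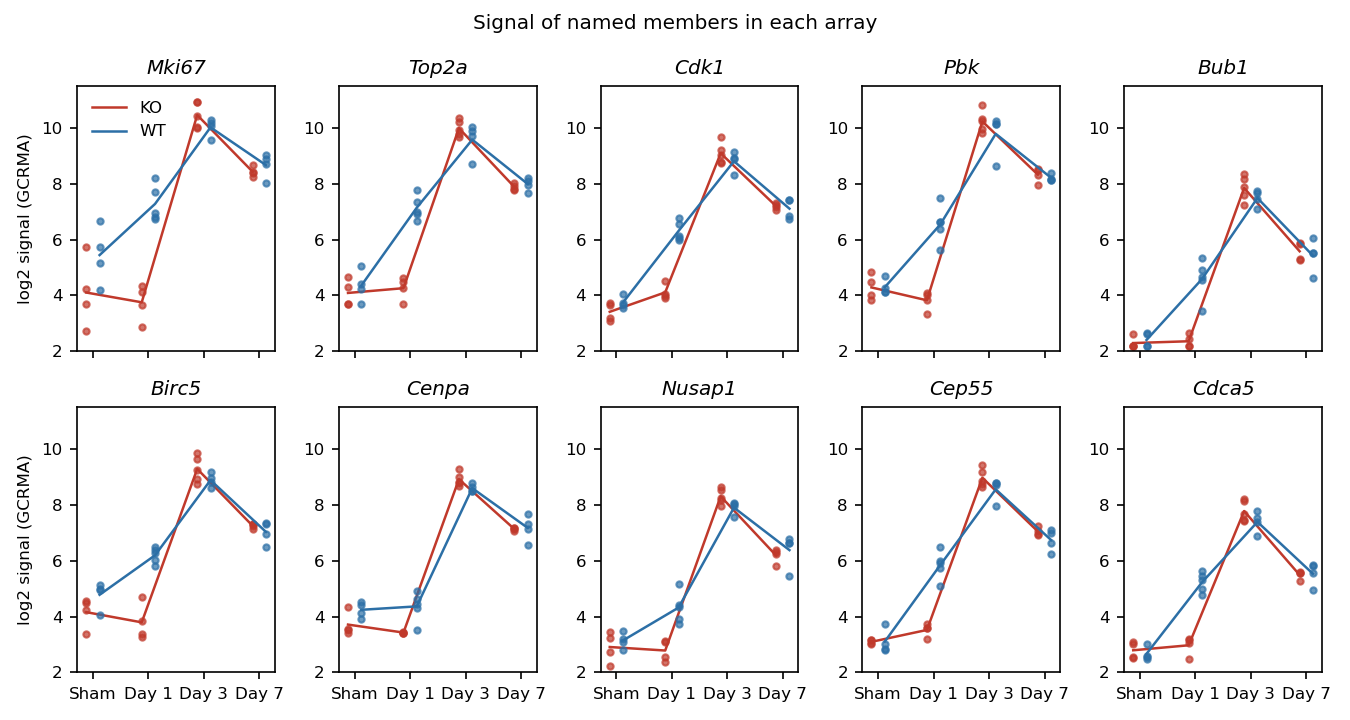
Log2 signal of 10 members in each array (points) and group means (lines) over sham and the 3 days, KO in red and left of WT in blue. For Mki67 the lines lie furthest apart at day 1 (3.75 in KO and 7.28 in WT). Its KO and WT means were 4.10 and 5.44 in sham, and 10.46 and 10.02 at day 3.

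Against sham, few members were called at day 1 in KO. In KO 3 of 40 members were higher at day 1 than in sham (20.9% of all probe sets were higher) and 1, Racgap1, was lower (23.7% of all). The 3 were Cdk1, Anln and Ncaph (0.71 ± 0.29, adjusted p = 0.0484). Ncaph was not called without the 2 WT arrays of conflicting labels, nor when the library labelled sham KO replicate 2 was left out, and Cdk1 and Anln still were in both cases. In WT 24 of 40 were higher at day 1 than in sham (24.0% of all probe sets were higher) and 1, Racgap1, was lower (28.9% of all). With the 2 WT arrays placed by their source and time fields, 19 were higher in WT and 0 lower. The median change was −0.02 in KO and 0.76 in WT. In WT the largest rises were those of Top2a (2.79 ± 0.27), Cep55 (2.74 ± 0.23), Cdk1 (2.56 ± 0.20) and Cdca5 (2.56 ± 0.21). The 15 members not called in WT at day 1 were Ccnb2, Plk1, Aurka, Nek2, Bub1b, Ttk, Aurkb, Cenpa, Cenpf, Ndc80, Nuf2, Tpx2, Hmmr, Anln and Ncapg.

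The difference between these changes was itself tested. For 9 members the day 1 minus sham change was smaller in KO than in WT, where 0.0692% of all probe sets were: Pbk (−2.71 ± 0.44), Top2a (−2.62 ± 0.39), Cdca5 (−2.38 ± 0.31), Cep55 (−2.31 ± 0.33), Bub1 (−2.12 ± 0.41), Ccna2 (−2.04 ± 0.34), Cdk1 (−1.86 ± 0.29), Shcbp1 (−1.82 ± 0.33) and Ect2 (−1.71 ± 0.30). Their adjusted p-values ran from 0.000530 for Cdca5 to 0.0235 for Bub1. Mki67 was not among them (−2.18 ± 0.65, adjusted p = 0.428), and its sham mean was 4.10 in KO and 5.44 in WT. The count was 7 without the 2 WT arrays of conflicting labels, 0 with them placed by their source and time fields, and 10 if the library labelled sham KO replicate 2 was dropped. The same test for day 3 minus sham called 0 members (0.00% of all probe sets were lower in KO, and 0 probe sets were higher). An unadjusted p under 0.05 was reached by 12 members and by 6.38% of all probe sets, and the median of the members was 0.55. Of the 31 members that would pass the filter without the day 3 arrays, 8 reached it, with a median of 0.54. For day 7 minus sham it also called 0 (0.00407% of all), with 2 members and 3.67% of all probe sets at an unadjusted p under 0.05 and a median of 0.14.

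By day 3 nearly all members were high in both genotypes. In KO 39 of 40 were higher than in sham (28.2% of all probe sets), with a median of 4.24, and in WT 39 of 40 were (26.1% of all probe sets), with a median of 3.86. The largest rises were those of Mki67 in KO (6.36 ± 0.45) and Pbk in WT (5.50 ± 0.32). The smallest among those called higher were those of Racgap1 in KO (1.71 ± 0.15) and Ndc80 in WT (1.22 ± 0.21). With every value below 4 set to 4, the medians were 3.72 in KO and 3.20 in WT. Since 9 members passed the filter through their day 3 arrays, the counts over the other 31 are given too: 30 were higher in KO, with a median of 4.99, and 30 in WT, with a median of 4.36.

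**Figure D4:**
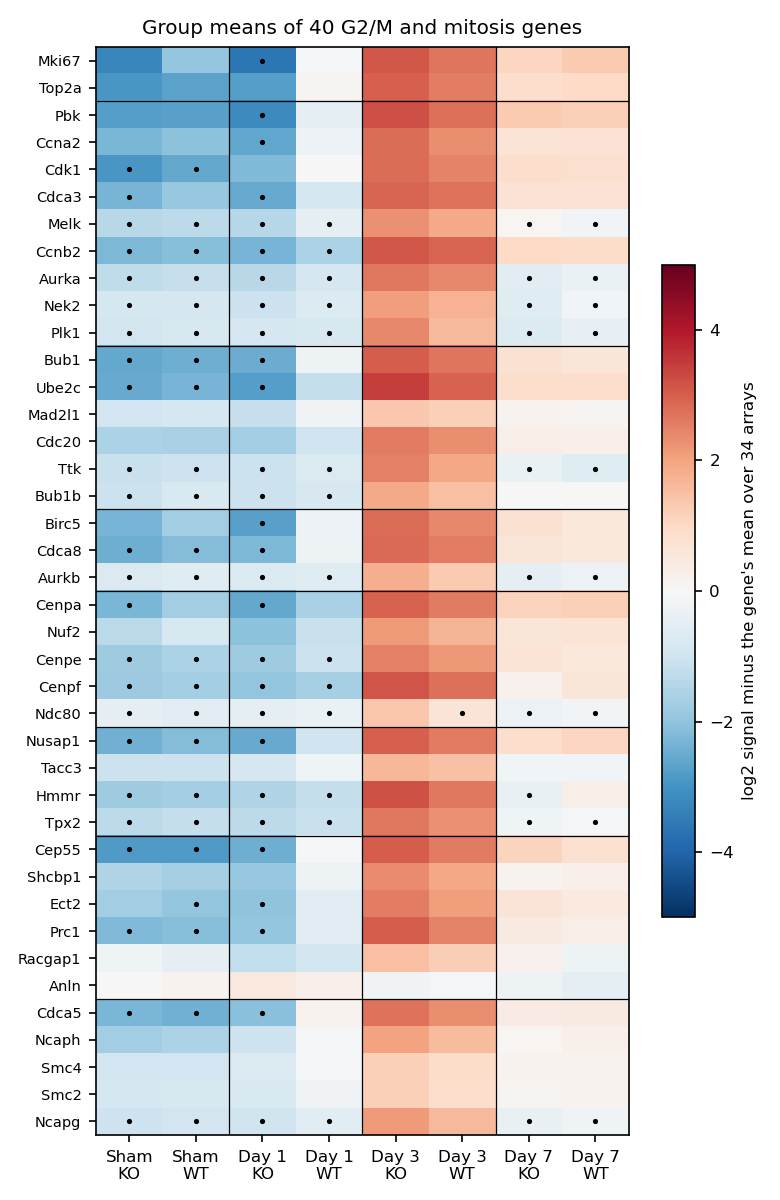
Group means of 40 genes as the log2 signal minus each gene's mean over 34 arrays; rows follow the roles, columns are the 8 groups, and dots mark means under 4. The day 3 columns are red and the sham columns blue in every row but that of Anln, and the day 1 KO column resembles the sham columns, with 28 dots against 14 in day 1 WT.

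From day 1 to day 3 the members rose in both genotypes. In KO 39 of 40 members were higher at day 3 than at day 1 (19.4% of all probe sets), with a median of 4.31, and in WT 39 of 40 were (11.7% of all probe sets), with a median of 2.64. Of the 31 members that passed without the day 3 arrays, 30 were higher in KO and 30 in WT, with medians of 4.97 and 2.71. The exception was Anln, which was lower at day 3 in KO (−0.65 ± 0.10, adjusted p = 3.87e-06) and in WT (−0.37 ± 0.10, adjusted p = 0.00530). The change was larger in KO for 19 members, where it was larger for 0.407% of all probe sets, and smaller for 0. Among the 19 were Mki67, which changed by 6.71 ± 0.45 in KO and 2.74 ± 0.45 in WT (difference 3.97 ± 0.63, adjusted p = 0.000951), and Top2a, which changed by 5.73 ± 0.27 in KO and 2.44 ± 0.27 in WT (difference 3.29 ± 0.38, adjusted p = 9.03e-06). Ube2c and Cenpa, with large rises in both genotypes, were not among them (adjusted p = 0.0627 and 0.0538). This comparison shares its day 1 arrays with the genotype difference at day 1, so the 2 counts are not separate evidence. Without the 2 WT arrays of conflicting labels 16 members were called, and with them placed by their source and time fields 6.

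**Figure D5:**
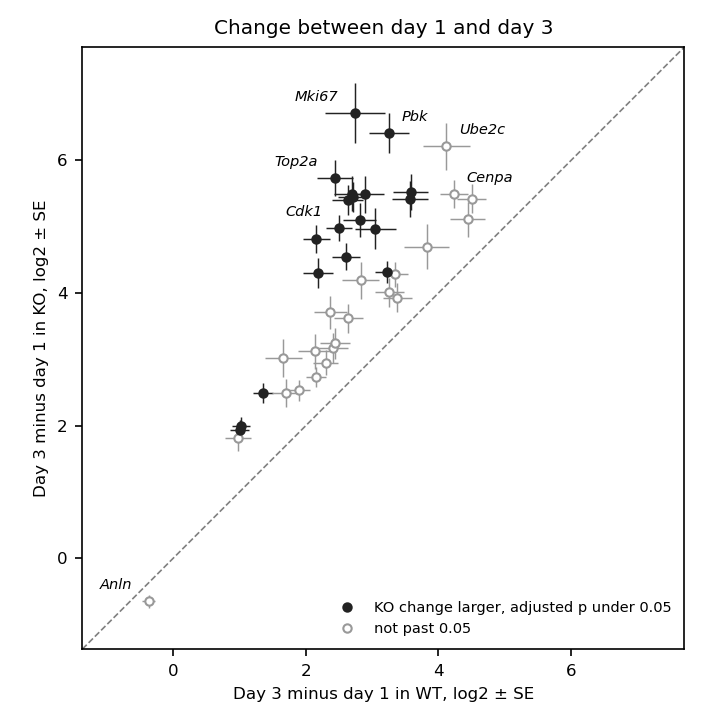
Day 3 minus day 1 change (log2 ± SE) of 40 genes in KO (vertical axis) against WT (horizontal axis); the dashed line marks equal change and filled points passed the test that the KO change is larger. Apart from Anln every point lies above the line, and 19 are filled.

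From day 3 to day 7 the signals declined. In KO 39 of 40 members were lower at day 7 than at day 3 (14.2% of all probe sets), with a median of −2.12 and Anln as the exception (−0.08 ± 0.10, adjusted p = 0.559). In WT 40 of 40 were lower (10.5% of all probe sets), with a median of −1.69. Of those 31 members, 30 were lower in KO and 31 in WT. By limma the decline differed between genotypes for 0 members (0.00814% of all probe sets fell more in KO). An unadjusted p under 0.05, in either direction, was reached by 6 members and by 7.42% of all probe sets. Of the 31 members that passed without the day 3 arrays, 2 reached it. At day 7, 34 of 40 were still higher than in sham in KO (19.8% of all probe sets), and 34 of 40 in WT (21.8% of all probe sets), with medians of 1.93 and 1.98. Not called then in KO were Plk1, Nek2, Aurkb, Ndc80 and Ncapg, and in WT Plk1, Ttk, Aurkb, Ndc80 and Racgap1. Mki67 was still 4.33 ± 0.47 above sham in KO and 3.22 ± 0.47 in WT, and Cep55 3.95 ± 0.24 in KO and 3.63 ± 0.24 in WT.

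Other cell cycle genes were set beside the members, from lists that had been written with earlier results of these data known. Among all tested probe sets 0.435% were lower in KO at day 1. Of 41 tested other mitotic genes 9 were lower in KO at day 1 and 0 higher, with a median of −0.44. The 4 with the largest differences were Spc25 (−1.70, adjusted p = 0.000180) and the centromere genes Cenpk (−1.26, adjusted p = 0.00267) and Cenpi (−1.19, adjusted p = 0.00345), with Fbxo5, an inhibitor of the anaphase-promoting complex (−1.19, adjusted p = 0.00948). Of 37 tested genes of G1/S and DNA replication 9 were lower and 0 higher, with a median of −0.62. Among them Rrm2, a subunit of ribonucleotide reductase, differed by −2.41 (adjusted p = 1.85e-06), Cdc6, which licenses replication origins, by −1.58 (adjusted p = 0.00297), and Uhrf1, which maintains DNA methylation, by −1.34 (adjusted p = 0.0305). E2f8, a repressor of the E2F family, differed by −1.17 and was not called (adjusted p = 0.0709).

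Against sham the replication genes also moved at day 1. Of the 37, 16 were higher and 1 lower in day 1 KO, while in day 1 WT 30 were higher and 0 lower. For the other mitotic genes the counts were 3 higher and 3 lower of 41 in day 1 KO, and 16 higher and 1 lower in day 1 WT. Of all tested probe sets, 20.9% were higher and 23.7% lower in day 1 KO, and 24.0% were higher and 28.9% lower in day 1 WT. Whether the lists differ in this was not tested. Uhrf1, for one, rose by 2.14 in KO (adjusted p = 3.96e-06) and by 3.24 in WT.

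Regulators of the programme and inhibitors of its kinases were mostly not called between genotypes at day 1. The share of all tested probe sets that were lower in KO then was 0.435%. Of 16 tested regulators 1 was lower in KO, Rbl1 (−1.10, adjusted p = 0.00939), which encodes the pocket protein p107 of the DREAM complex. The DREAM subunits Lin9 (−0.54, adjusted p = 0.0673) and Lin54 (−0.39, adjusted p = 0.116) and the E2F partner Tfdp1 (−0.23, adjusted p = 0.438) were not called. Of 15 tested inhibitors and growth arrest genes 1 was lower in KO, Cdkn2c (−0.84, adjusted p = 0.0340), which encodes an inhibitor of CDK4 and CDK6. Cdkn1a, which encodes the inhibitor p21, differed by 0.86 (adjusted p = 0.233); against sham it rose at day 1 by 2.83 in KO and by 1.65 in WT. Gas1 (−0.68, adjusted p = 0.604) and Cdkn1c, which encodes p57 (−0.49, adjusted p = 0.553), were not called.

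Markers of the cell types that the tissue could hold were read beside the day 1 result. In 15 lists with tested genes, limma called 0 of 70 marker genes in KO against WT at day 1. Of all 24573 tested probe sets it called 135, so 0 of 70 does not show that the cell types were alike. At an unadjusted p under 0.05, 5 marker genes were lower and 0 higher, where 8.82% of all probe sets reached it in either direction. For 5 fibroblast and meningeal markers the summed signal was 11.44 to 13.19 (log2) in day 1 KO and 13.02 to 13.56 in day 1 WT, with a median difference of −1.08. For 5 microglial markers it was 9.60 to 9.84 in KO and 9.81 to 10.22 in WT (median difference −0.32). For 6 monocyte and macrophage markers it was 12.14 to 12.85 in KO and 12.27 to 13.19 in WT (median difference −0.23). These sums overlapped between the genotypes, as did the neuronal, oligodendrocyte and astrocyte sums. The median difference was below 0 in 10 of the 15 lists.

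Blood and muscle were read likewise. All 5 T cell, all 4 B cell and all 5 granulocyte precursor markers, and 4 of 5 erythroid precursor markers, were near the floor in both day 1 groups. Within day 1 WT, however, the granulocyte precursor sum reached 7.76 in its highest array and the erythroid sum 7.50, against 5.07 and 5.25 in the highest day 1 KO array. Skeletal muscle markers summed to 6.15 to 10.15 in day 1 KO and 5.92 to 11.86 in day 1 WT, and 7 of 7 were lower in day 1 KO than in sham KO, where 23.7% of all probe sets were. In day 1 WT against sham WT 0 of the 7 were called by limma and 0 had an unadjusted p under 0.05, with a median of −1.47. The part of any of these in the member differences was not tested.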

How the data were processed

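Total RNA of thoracic spinal cord was hybridised to 34 Affymetrix arrays, 1 per sample. The deposited values are log2 signals that the authors made with GCRMA, per the submitters' processing notes (version not stated), with 1 value per probe set; the build and further settings are not given in the sources used here. Arrays have no counts, so that their number limits the precision. Groups came from the titles.

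Gene names came from the platform annotation. Of 45101 probe sets, 34958 name 1 gene, 932 several and 9211 none. Control probe sets (64) were left out, and 24573 probe sets reaching a log2 of 4 in 4 or more arrays were tested. One model of 8 group means over all arrays was fitted with limma 3.58.1 in R 4.3.3 (lmFit and eBayes; residual df 26, prior df 2.62), with 19 contrasts and Benjamini-Hochberg adjustment over all tested probe sets in each. The p-values measure the spread between these samples. The script was tested on simulated data.

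The member genes, gene lists and marker lists were chosen with earlier results of these data known. Values in every array are given for Mki67, Top2a and Cdk1 and for the members with the largest and the smallest absolute KO minus WT difference at day 1 in each role, and 4 genes of each other pathway list are named by the largest such difference. Alternatives covered the filter, the floor, rescaling, the prior, array weights, the arrays in the fit, the probe set per gene, the doubtful labels, the replicate number and leaving out each array. Titles share replicate numbers between groups, but nothing in the labels says that a number marks a shared animal or day, and the check of the numbers did not pair the samples.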

Additional observations from a re-analysis of the deposited data

Results flagged for a closer look

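In 144 groups of 4 or 5 arrays, the highest or the lowest array was compared with the others by Dixon's test, which chance passes in about 1 group in 20. In 20 groups an array stood apart. At day 1, Plk1 read 2.17 in KO replicate 4, against 2.48 to 2.51 in the other KO arrays, and 2.17 in WT replicate 3, against 2.46 to 2.51 in the other WT arrays. Cenpa read 3.46 in day 1 KO replicate 2 (others 3.41 to 3.42), Aurkb 2.80 in day 1 WT replicate 4 (others 2.75) and Ndc80 2.81 in day 1 WT replicate 5 (others 2.86). All 5 of these groups had a mean under 4.

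At day 3 WT replicate 2 stood low in 3 genes. Pbk read 8.62 there, against 10.13 to 10.26 in the other WT arrays, Cep55 read 7.97 (others 8.70 to 8.79) and Anln read 11.56 (others 11.90 to 11.94). At day 7 Cdca5 read 5.26 in KO replicate 4 (others 5.55 to 5.59) and Ncapg 3.92 in KO replicate 1 (others 3.24 to 3.31). In day 7 WT Pbk read 8.39 in replicate 1 (others 8.14 to 8.17), Plk1 read 3.63 in replicate 1 (others 2.51 to 2.61) and Nusap1 read 5.46 in replicate 2 (others 6.62 to 6.79).

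In sham KO replicate 3 stood apart in 4 genes. Bub1b read 3.75 (others 3.54), Cenpa 4.35 (others 3.41 to 3.56), Ndc80 2.27 (others 2.81) and Tpx2 2.81 (others 2.30 to 2.32). Bub1 read 2.63 in sham KO replicate 4 (others 2.17 to 2.19). In sham WT Birc5 read 4.05 in replicate 3 (others 4.96 to 5.12) and Tpx2 read 2.73 in replicate 1 (others 2.43 to 2.46).

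The change over time differed between the genotypes by limma's test of the difference for 9 members in the day 1 minus sham change, all smaller in KO, and for 19 members in the day 3 minus day 1 change, all larger in KO. Both comparisons use the day 1 arrays.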

How the results depend on the processing

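Among the members, 386 values passed the threshold over the 19 comparisons, and of their 17728 values under the alternatives 17400 stayed past it, 328 did not and 0 turned sign. The alternative that moved most counts placed the 2 arrays of conflicting labels by their source and time fields. Then 12 members were called for KO minus WT at day 1 (21 with the titles), 2 for KO day 1 minus sham (4), 0 for the KO minus WT difference in the day 1 minus sham change (9) and 6 for that in the day 3 minus day 1 change (19). Leaving out each array in turn gave 15 to 23 members for KO minus WT at day 1, 0 to 1 at day 3, 7 to 11 for the day 1 minus sham change and 14 to 24 for the day 3 minus day 1 change. No filter, or values below 4 set to 4, gave 15 members at day 1, and only the arrays compared gave 17. The cause was not tested. With the replicate number as a replicate block, 19 members were called at day 1, 10 for the day 1 minus sham change and 21 for the day 3 minus day 1 change. The numbers did not pair the samples: same-numbered arrays had a mean correlation of deviations of 0.00467 over 113 pairs, from −0.454 to 0.430, and 5 of 34 arrays correlated best with one of their own number. Averaging all probe sets of a gene could be fitted for 37 members, and the filter at log2 5 kept 39. Signals near the floor limit the sham and day 1 values.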
